A study of Mus musculus with 6 samples.

Results

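The integrated stress response was followed through 10 genes of its PERK to ATF4 branch in cultured synovial fibroblasts (SFs), the mesenchymal cells of the joint lining. The members were the genes of the deposited table whose name was Eif2ak3, Atf4, Ddit3, Atf3, Trib3, Ppp1r15a, Asns, Chac1, Sesn2 or Ddit4, and all 10 of them were found among the 49548 genes listed. The list was drawn up by the genes' known roles, with earlier results of these data known. Both groups were SFs from the ankle joints of hTNFtg mice, which carry a human TNF transgene and develop arthritis, and each group had 3 libraries. One group had no treatment according to the labels, and the other had 500 μM amisulpride, an antipsychotic drug and antagonist of dopamine receptors, for 48 hours. The study's methods give the animals as 8 weeks old on a CBA and C57BL/6J background, speak of vehicle for the controls, and describe 3 biological replicates and removal of CD45+ blood cells at the first passage. The cells were therefore a primary culture with a single dose and time, and without wild-type SFs in this comparison.

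When a cell is short of amino acids, folds protein poorly in the endoplasmic reticulum (ER), is infected by a virus or lacks haem, a member of a small family of kinases phosphorylates the translation initiation factor eIF2. Most translation then slows, while the mRNA of the transcription factor ATF4 is translated better, so that ATF4 can act through its protein with little change of its own mRNA. ATF4 and its target CHOP (gene Ddit3) then induce genes for amino acid supply, redox balance, feedback and, under lasting stress, cell death.

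ATF4 binds DNA together with C/EBP proteins at a composite element, so the promoter windows of the members were searched for it. RefSeq (GRCm38.p6) gave a window of 250 bases before to 50 bases after the start for 10 of 10 members. The C/EBP-ATF response element was searched as TGATGNAA, which reads TTNCATCA on the other strand, and the cyclic AMP response element, to which ATF family dimers bind, as TGACGTCA, which reads the same on both strands. The first was found in the windows of 4 of the 10 members, namely Atf3, Trib3, Asns and Chac1, and in 3.97% of 32851 windows of all genes. The second was found in 1 member, Ppp1r15a, and in 1.79% of all windows. Neither was found in the windows of Eif2ak3, Atf4, Ddit3, Sesn2 and Ddit4. The 2 motifs share letters but differ at fixed positions, so the same bases cannot match both. The 5 windows with a match are shown because genes that share an element differed in their values, and the capitals mark the match. Each runs 5′ to 3′ on the strand of the gene and ends at the base before the start, except that of Trib3, whose match lies after the start and which runs on by 30 bases. The starts used for Atf3, Asns and Chac1 lie inside the coordinates given below for these genes. The matches of Atf3 and Asns lie inside them too, and that of Chac1 lies before them. The start used for Trib3 lies before its coordinates, so its match is after that start but outside them.
Atf3, chr1:191183334-191183583, minus strand: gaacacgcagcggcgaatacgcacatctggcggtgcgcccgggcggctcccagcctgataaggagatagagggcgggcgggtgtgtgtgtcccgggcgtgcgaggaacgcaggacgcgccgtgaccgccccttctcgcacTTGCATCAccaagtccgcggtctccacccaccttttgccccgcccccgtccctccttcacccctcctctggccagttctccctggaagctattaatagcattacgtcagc
Trib3, chr2:152344031-152344310, minus strand: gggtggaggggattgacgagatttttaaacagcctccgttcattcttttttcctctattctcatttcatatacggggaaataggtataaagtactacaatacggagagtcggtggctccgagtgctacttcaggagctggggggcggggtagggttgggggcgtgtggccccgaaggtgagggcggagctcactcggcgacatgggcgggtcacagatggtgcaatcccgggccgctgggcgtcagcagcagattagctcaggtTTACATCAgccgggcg
Asns, chr6:7693210-7693459, minus strand: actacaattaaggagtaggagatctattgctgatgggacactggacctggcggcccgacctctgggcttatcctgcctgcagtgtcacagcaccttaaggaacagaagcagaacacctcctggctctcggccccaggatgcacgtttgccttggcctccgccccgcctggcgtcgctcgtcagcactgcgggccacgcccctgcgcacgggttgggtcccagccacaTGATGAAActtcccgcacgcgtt
Chac1, chr2:119350992-119351241, plus strand: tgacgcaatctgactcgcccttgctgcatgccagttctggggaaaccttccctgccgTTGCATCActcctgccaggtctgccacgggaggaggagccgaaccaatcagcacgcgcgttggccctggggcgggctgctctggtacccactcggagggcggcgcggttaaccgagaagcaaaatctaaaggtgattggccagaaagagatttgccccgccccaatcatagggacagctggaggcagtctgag
Ppp1r15a, chr7:45526269-45526518, minus strand: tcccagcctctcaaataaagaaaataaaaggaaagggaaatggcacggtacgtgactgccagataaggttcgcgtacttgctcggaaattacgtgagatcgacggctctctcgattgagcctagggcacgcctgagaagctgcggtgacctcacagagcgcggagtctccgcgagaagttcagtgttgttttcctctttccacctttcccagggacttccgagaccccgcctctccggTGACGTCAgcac
The match lay at bases -110 to -103 from the start in Atf3, -193 to -186 in Chac1, -23 to -16 in Asns and 15 to 22 in Trib3, and the cyclic AMP element at -12 to -5 in Ppp1r15a. In Asns the letters stood on the strand of the gene, and in Atf3, Chac1 and Trib3 on the other strand. A match describes these letters only and does not show that a factor was bound.

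Of the 10 genes, 3 were higher in amisulpride-treated hTNFtg SFs past the thresholds of the study, which ask for a log2 fold change of 1 or more in size together with an unadjusted p under 0.05. They were the transcription factors Ddit3 and Atf3 and the feedback gene Trib3, at 2.04, 2.92 and 2.79 times the untreated level. No member was lower past these thresholds, and Atf4 itself, the sensor Eif2ak3 and the amino acid and redox genes Asns, Chac1 and Sesn2 did not pass. Among all 12614 genes tested, 2.69% were higher and 3.01% lower past them, 5.7% in all. None of the 10 had an adjusted p under 0.05 by limma, the adjustment running over all genes tested, of which 0.285% passed. An unadjusted p under 0.05 was found for 4 members, all higher, against 5.11% of all genes higher and 10.9% in either direction. The median log2 fold change was 0.38 over the 10 members and 0.00 over all genes tested. In bulk RNA, fewer cells of a type and less RNA per cell cannot be told apart. All 10 members passed the filter of at least 10 normalised counts in at least 3 libraries, a normalised count being the read count divided by a factor for its library. Atf3 passed it through 1 untreated and 3 treated libraries.

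The libraries held approximately 2.52 to 4.71 M reads assigned to genes, and the shallowest was amisulpride replicate 3. This estimate comes from the spacing of low values and is least certain for untreated replicate 1. Of fibroblast markers, 10 of 10 were tested and their summed level was 44588 to 59166 normalised counts in untreated and 51317 to 90819 in treated libraries. Most of that sum was collagen and vimentin mRNA, and none of the 10 passed the study thresholds, while Prg4, Lum and Pdpn were lower in 3 of 3 pairs, at log2 fold changes of -0.92, -1.07 and -0.67. Of these, Prg4 did not overlap between the groups, and Lum passed with the replicate block. The 9 myeloid markers, all tested, summed to 2337 to 3951 and 2105 to 4001. Of these 9 genes, 7 had a negative and 2 a positive log2 fold change, where 50.1% of all genes tested had a positive one. Cd14 at -1.74 and Csf1r at -1.01 were past the study thresholds, and Adgre1 and Cd68 stood at 0.83 and 0.31, higher in 3 of 3 pairs. Cd14 lost this call in 0 of 13 alternatives, and its adjusted p with the replicate block was 0.012 (limma). Csf1r lost it in 8 of 13 alternatives, 5 of the 6 with a library left out among them, and was -0.53 without amisulpride replicate 2. Ptprc, which encodes CD45, was at 12 to 38 and 5 to 23 normalised counts. Muscle and osteoclast markers, 4 of 8 tested, summed to 897 to 1538 and 501 to 974, and all 4 had a negative log2 fold change. Acp5, at -2.03, was past the study thresholds and lost this call in 0 of 13 alternatives. Its adjusted p with the replicate block was 0.00136 (limma). The 5 endothelial markers summed to 2 to 13 and 1 to 15, with Cdh5 at 0 in each library. The part of these cells and of depth in the results was not tested.

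**Figure D1:**
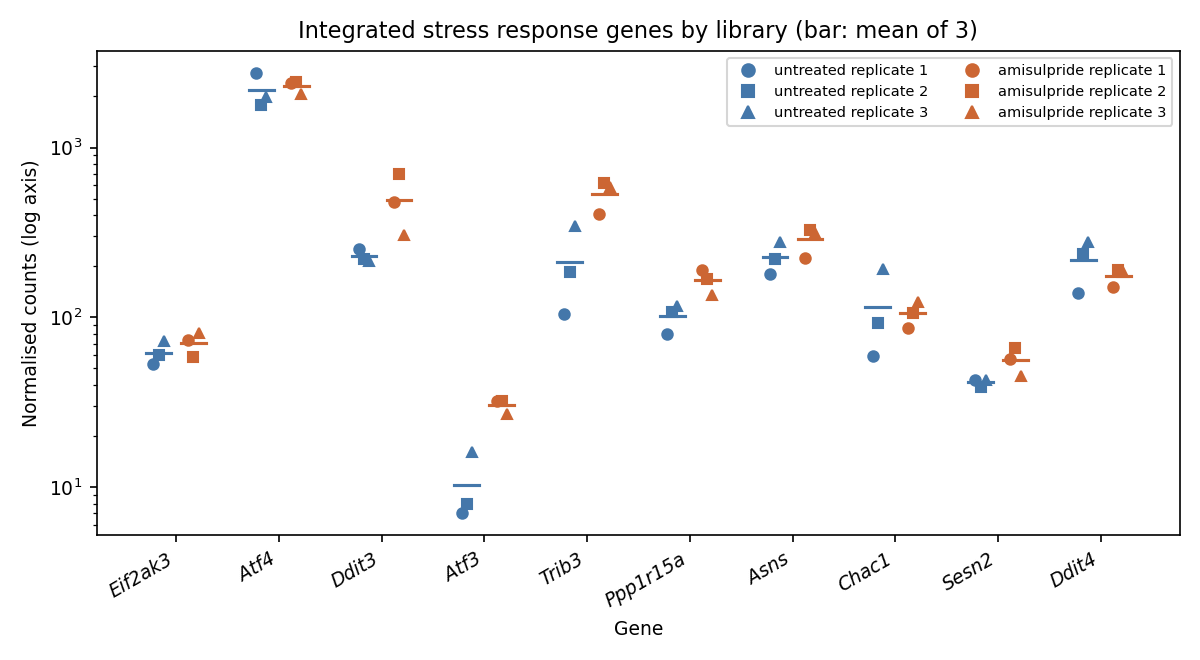
Normalised counts of the 10 genes on a log axis, with 1 point for each of the 3 untreated (blue) and 3 amisulpride-treated (orange) libraries and a bar at the mean of each group. The treated points of Ddit3, Atf3, Trib3, Ppp1r15a and Sesn2 all lie above the untreated ones, and those of the other genes overlap.

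Eif2ak3 encodes PERK, the eIF2 kinase that senses unfolded protein in the ER (ENSMUSG00000031668, mm10 chr6:70844515-70905245, plus strand). It had 53, 60 and 73 normalised counts in untreated replicates 1, 2 and 3 and 74, 58 and 81 in amisulpride replicates 1, 2 and 3, so the groups overlapped. Its log2 fold change, amisulpride minus untreated, was 0.19 ± 0.29 (SE) with a 95% interval of -0.44 to 0.83 and an adjusted p of 0.845 (limma).

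Atf4 encodes the central transcription factor of the response (ENSMUSG00000042406, chr15:80255184-80257540, plus strand). It was the most abundant of the 10 genes by normalised count, with 2755, 1769 and 1993 in untreated and 2393, 2415 and 2056 in treated libraries. The untreated libraries held both its highest and its lowest value. The group means were 2172 ± 517 and 2288 ± 201 (SD, n = 3 each), and the log2 fold change was 0.10 ± 0.26 with a 95% interval of -0.47 to 0.66 and an adjusted p of 0.917 (limma). Since ATF4 is controlled in large part at translation, its mRNA level does not give the amount of protein, which was not measured here.

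Ddit3 encodes CHOP, the pro-apoptotic transcription factor induced by ATF4 (ENSMUSG00000025408, chr10:127290774-127296288, plus strand). Its normalised counts were 253, 221 and 214 in untreated and 480, 695 and 306 in treated libraries. The groups did not overlap, the untreated values lay close together, and the treated values were spread, with amisulpride replicate 2 highest and replicate 3 lowest. The means were 229 ± 20.8 and 494 ± 195 (SD, n = 3 each), and the log2 fold change was 1.03 ± 0.30 with a 95% interval of 0.36 to 1.69, an unadjusted p of 0.00582 and an adjusted p of 0.212 (limma). Without amisulpride replicate 2 it was 0.74, and without untreated replicate 3 it was 0.98, both under the fold threshold of the study. Without amisulpride replicate 3 it was 1.33, with an adjusted p of 0.0271 (limma). GENCODE M21 lists another protein-coding entry named Ddit3 on the same strand, which overlaps it by 2925 bases and has no values here. The last 68 bases of Ddit3 overlap Mars, the methionyl-tRNA synthetase gene on the opposite strand. The libraries were read from transcript ends and the counting is not stated to use strand, so reads of these genes in that stretch could not be told apart. Mars had 312, 118 and 143 normalised counts in untreated and 79, 108 and 70 in treated libraries, so it was lower in the group in which Ddit3 was higher.

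Atf3 encodes a stress-induced transcription factor of the same family that acts on many ATF4 and CHOP targets (ENSMUSG00000026628, chr1:191170296-191218039, minus strand). It was the least abundant of the 10 genes, with 7, 8 and 16 normalised counts in untreated and 32, 32 and 27 in treated libraries, from approximately 7 to 36 reads. The groups did not overlap, and the treated values lay close together. The means were 10.3 ± 4.93 and 30.3 ± 2.89 (SD, n = 3 each), and the log2 fold change was 1.55 ± 0.45 with a 95% interval of 0.56 to 2.53, an unadjusted p of 0.00523 and an adjusted p of 0.208 (limma). Its standard error was the largest of the 10 genes.

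Trib3 encodes a pseudokinase that is induced by ATF4 and CHOP and restrains them (ENSMUSG00000032715, chr2:152337422-152344032, minus strand). Its normalised counts were 105, 184 and 345 in untreated and 405, 614 and 587 in treated libraries. The groups did not overlap, although the highest untreated value, in replicate 3, came close to the lowest treated value, in replicate 1. The means were 211 ± 122 and 535 ± 114 (SD, n = 3 each), and the log2 fold change was 1.48 ± 0.38 with a 95% interval of 0.64 to 2.32, an unadjusted p of 0.00258 and an adjusted p of 0.154 (limma). Within pairs of the same replicate number, the log2 ratio was 1.94, 1.73 and 0.77 in replicates 1, 2 and 3. With the replicate number as a block the standard error was 0.28 and the adjusted p 0.00899 (limma), and Trib3 was then the member that passed an adjusted p of 0.05, at which 2.08% of all genes passed in that fit.

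Ppp1r15a encodes GADD34, the subunit that brings phosphatase to eIF2 and ends the response (ENSMUSG00000040435, chr7:45522916-45526268, minus strand). It had 80, 108 and 116 normalised counts in untreated and 191, 169 and 136 in treated libraries. Each treated value was above each untreated one, and the gap was narrowest between replicates 3. The log2 fold change was 0.70 ± 0.27 with a 95% interval of 0.11 to 1.30, an unadjusted p of 0.0242 and an adjusted p of 0.355 (limma), under the fold threshold of the study. Its final 717 bases overlap Tulp2 on the opposite strand, which stood at 0 to 2 normalised counts in untreated libraries and at 0 in treated ones.

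Asns encodes asparagine synthetase, a classical ATF4 target of the amino acid response (ENSMUSG00000029752, chr6:7675169-7693254, minus strand). Its values of 180, 221 and 279 normalised counts in untreated and 224, 328 and 315 in treated libraries overlapped, while each treated library was above the untreated one of its own number. The log2 fold change was 0.35 ± 0.27 with a 95% interval of -0.24 to 0.94 and an adjusted p of 0.687 (limma). Sesn2 encodes sestrin 2, a leucine sensor that restrains mTORC1 (ENSMUSG00000028893, chr4:132492032-132510501, minus strand). It had 43, 39 and 43 normalised counts in untreated and 57, 66 and 45 in treated libraries, without overlap but with amisulpride replicate 3 just above the untreated ones. Its log2 fold change of 0.40 ± 0.30 had a 95% interval of -0.26 to 1.06 and an adjusted p of 0.674 (limma).

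Chac1 encodes an enzyme that degrades glutathione and is induced by ATF4 (ENSMUSG00000027313, chr2:119351229-119354381, plus strand). It had 59, 92 and 193 normalised counts in untreated and 87, 106 and 123 in treated libraries. The untreated values spread so widely that they enclosed the treated ones. The log2 fold change was 0.04 ± 0.39 with a 95% interval of -0.82 to 0.90 and an adjusted p of 0.98 (limma). Ddit4 encodes REDD1, an inhibitor of mTORC1 that is induced by ATF4, hypoxia and glucocorticoids (ENSMUSG00000020108, chr10:59949675-59951770, minus strand). It had 140, 236 and 276 normalised counts in untreated and 151, 189 and 184 in treated libraries, and was the only one of the 10 with a negative log2 fold change, -0.26 ± 0.29 with a 95% interval of -0.91 to 0.38 and an adjusted p of 0.785 (limma). The intervals of these 4 genes hold differences in both directions, so these data do not show that the genes stayed level.

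**Figure D2:**
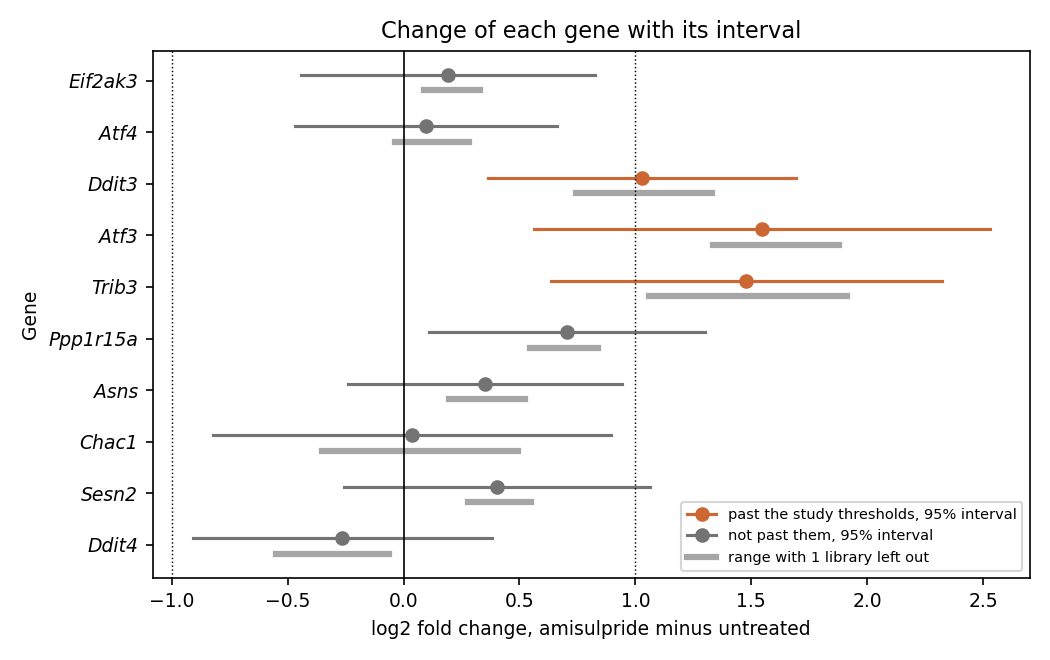
Log2 fold change of each of the 10 genes, amisulpride minus untreated, with its 95% interval (thin line), and the range over the fits with 1 library left out (thick grey bar). Dotted lines mark the fold threshold of the study at -1 and 1, and Ddit3, Atf3 and Trib3, in orange, passed both thresholds at 1.03, 1.55 and 1.48.

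Across the list, 5 of the 10 members had treated values all above the untreated ones, and none had them all below, where 7.8% and 8.66% of all genes tested did. The genes with the C/EBP-ATF letters in their promoter window were on both sides of this line, Atf3 and Trib3 without overlap and Asns and Chac1 with overlap. Ddit3, with neither motif in its window, was past the study thresholds, and bases farther than 250 before or 50 after a start were not searched. Atf3 and Chac1 carry the same 8 letters, TTGCATCA, and had log2 fold changes of 1.55 and 0.04.

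Ratios to Atf4 within each library do not depend on the factor by which that library was scaled, and ask whether the other 9 members moved relative to Atf4 mRNA. The normalised count of Ddit3 was 9.18%, 12.5% and 10.7% of that of Atf4 in untreated and 20.1%, 28.8% and 14.9% in treated libraries. The ratio of Atf3 was 0.254%, 0.452% and 0.803% in untreated and 1.34%, 1.33% and 1.31% in treated libraries. For Ppp1r15a the ratio was 2.90%, 6.11% and 5.82% in untreated and 7.98%, 7.00% and 6.61% in treated libraries. In these 3 of 9 ratios the treated libraries were all above the untreated ones, by 0.93, 1.55 and 0.61 on the log2 scale of the means. Each had a two-sided exact permutation p of 0.1, the smallest that 3 against 3 libraries allow, and 0.3 after adjustment over the 9 ratios. Trib3 overlapped in this measure, with 3.81%, 10.4% and 17.3% against 16.9%, 25.4% and 28.6%, an exact permutation p of 0.2 and 0.36 after adjustment. The remaining 5 ratios overlapped, with log2 differences from -0.36 for Ddit4 to 0.31 for Sesn2. Within pairs of the same replicate number, the ratio was higher in the treated library in 3 of 3 pairs for 6 of the 9 genes, namely Ddit3, Atf3, Ppp1r15a, Trib3, Asns and Sesn2. The share over all genes tested was not computed for this measure. The 9 ratios share the value of Atf4, which was highest in untreated replicate 1, at 2755 normalised counts. Each ratio was lowest in that library, so they are not separate observations. An exact permutation test within 3 pairs cannot go below 0.25, and none was run.

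**Figure D3:**
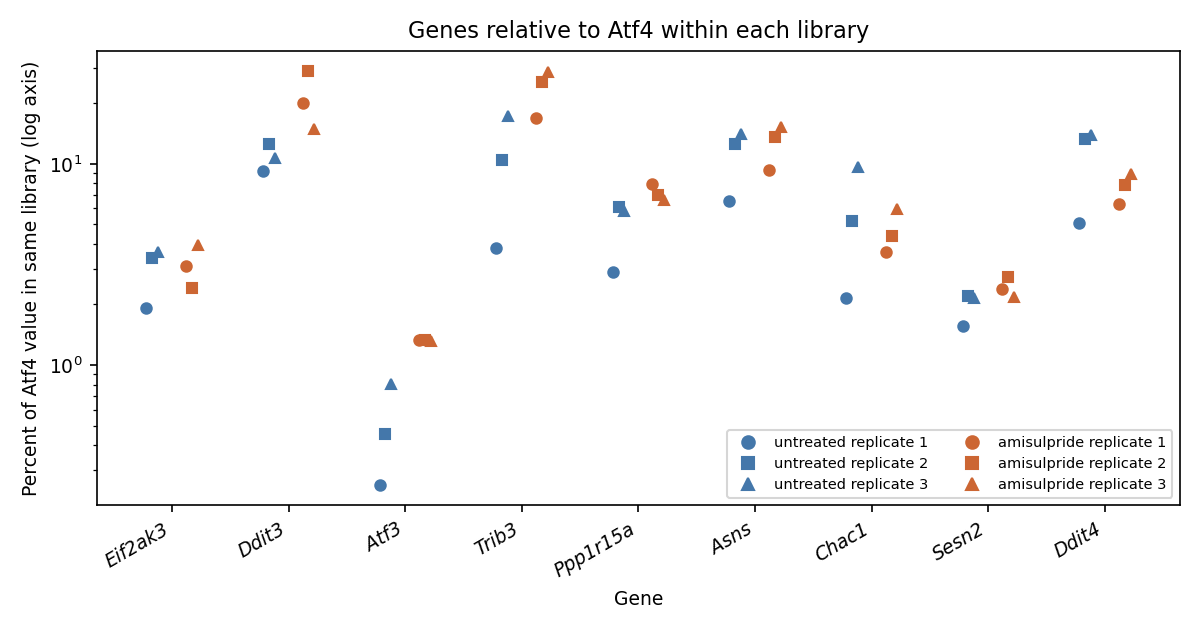
Normalised count of each of 9 genes as a percent of that of Atf4 in the same library, on a log axis, with 1 point for each of the 3 untreated (blue) and 3 treated (orange) libraries. The treated points of Ddit3, Atf3 and Ppp1r15a lie above all untreated ones, and those of Trib3 overlap at 16.9% and 17.3% while being higher in 3 of 3 pairs.

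Untreated libraries differed among themselves in these genes. Untreated replicate 3 held the highest value of its group in 7 of the 10 members and in 36 of 48 tested genes of 4 lists of ATF4 target genes, that is, in 70% and 75%, against 29.8% of all genes tested. Untreated replicate 1 held the lowest in 7 of the 10 members and in 26 of the 48, 54.2%, against 34.7% of all genes. Trib3 and Chac1 were more than 3 times higher in untreated replicate 3 than in replicate 1. Among treated libraries, amisulpride replicate 2 was highest in 6 of the 10 members, while amisulpride replicate 3 was highest in 27 of the 48 target genes, 56.3%, where the shares over all genes were 28.8% and 37.3%. Ties for the highest value were counted for neither library.

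**Figure D4:**
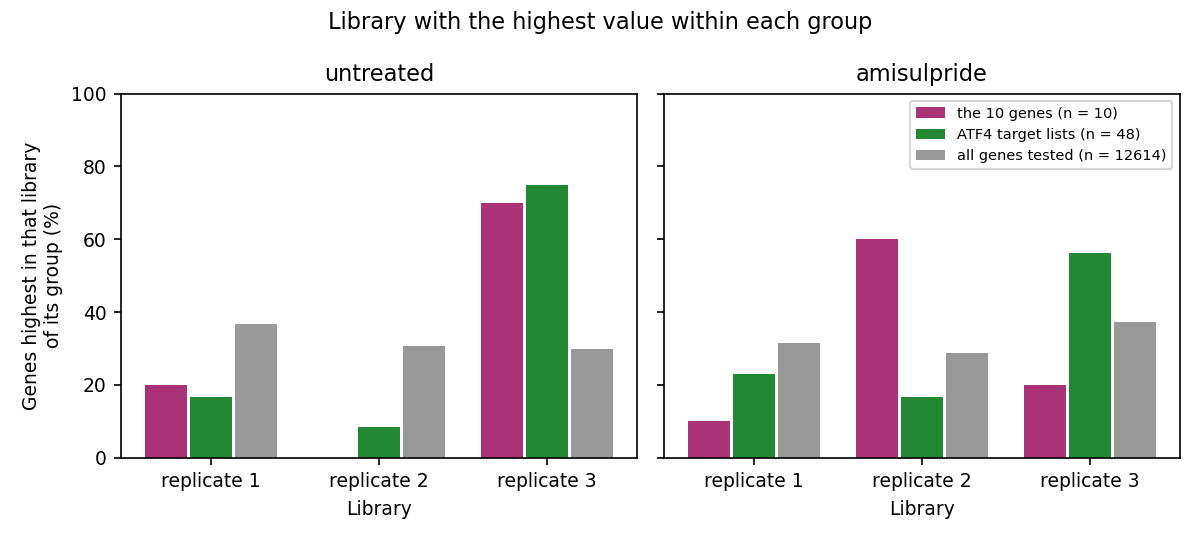
Percent of genes whose highest value within the untreated (left) or amisulpride (right) group fell in each library, for the 10 genes, the 48 tested genes of the ATF4 target lists and all 12614 genes tested. Untreated replicate 3 reaches 70% and 75% in the first pair of sets and 29.8% in all genes.

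The other genes of the pathway were read from lists written from general knowledge. Of the 17 genes for the remaining eIF2 kinases, eIF2, its phosphatase and its exchange factor eIF2B, all were tested and none passed the study thresholds, with a median log2 fold change of 0.04. The other kinases, Eif2ak1 (HRI, the haem sensor), Eif2ak2 (PKR, which senses double-stranded RNA) and Eif2ak4 (GCN2, which senses uncharged tRNA), had log2 fold changes of -0.40, 0.21 and 0.04, and Ppp1r15b, the constitutive counterpart of Ppp1r15a, -0.07. The lowest p belonged to Nck1, an adaptor that recruits phosphatase to eIF2, with 44, 75 and 63 normalised counts in untreated and 100, 106 and 106 in treated libraries, a log2 fold change of 0.80 and an unadjusted p of 0.0178 (limma). Next in order of p were Ppp1cc, a catalytic phosphatase subunit, at -0.43 with an unadjusted p of 0.169, Eif2ak1, and Eif2b5, a subunit of the exchange factor, at 0.34 with 0.269 (limma).

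Of 13 partner and sister factors of ATF4, all were tested and none passed the study thresholds, with a median of 0.18. Cebpb, which encodes C/EBPβ, had 458, 386 and 308 normalised counts in untreated and 300, 220 and 213 in treated libraries, a log2 fold change of -0.65 and an unadjusted p of 0.0291 (limma). Nfe2l2, which encodes the antioxidant regulator NRF2, had 218, 195 and 168 against 267, 258 and 421, a log2 fold change of 0.67 and an unadjusted p of 0.0297 (limma). The groups did not overlap in either gene. Nupr1, a stress-induced chromatin protein, was at 0.64 and Fos at 0.87, with unadjusted p of 0.0603 and 0.0815 (limma), and Atf5, the closest sister of Atf4, at 0.18.

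The ATF4 target genes were divided into 4 lists of 51 genes, 48 of them tested. These split into 24 with a positive and 24 with a negative log2 fold change, with a median of -0.00, and 3 were higher and 1 lower past the study thresholds. That was 8.33% of the 48, against 5.7% of all genes tested. Of 13 tRNA charging and export genes, 1 passed, Mars, at -1.04 with an unadjusted p of 0.0158 (limma). Mars lost this call in 4 of 13 alternatives, 3 of the 6 with a library left out among them. It was highest in untreated replicate 1, and without that library it was -0.62 with a p of 0.0761 (limma). Of the 13, 9 had a negative log2 fold change, with a median of -0.12, where 50.1% of all genes tested were positive. Eprs was at 0.88 with an unadjusted p of 0.0769 (limma). It had 194, 204 and 379 normalised counts in untreated and 262, 356 and 1007 in treated libraries, with overlap. Wars was at 0.59 and Xpot at -0.22. Of 10 amino acid transporters, 9 were tested and 1 passed, the glutamine transporter Slc1a5, with 84, 64 and 102 normalised counts in untreated and 178, 166 and 172 in treated libraries. Its log2 fold change was 1.06 ± 0.27, with an unadjusted p of 0.00207 and an adjusted p of 0.14 (limma), and 0.89 without untreated replicate 2. Slc3a2, the heavy chain of amino acid exchangers, was at 0.99 with a p of 0.0129 (limma), and its light chain partner Slc7a5 and the arginine transporter Slc7a1 were at 0.47 and 0.63.

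Of 13 enzymes of serine, one-carbon, proline and cysteine metabolism, 12 were tested, none passed the study thresholds, and 9 of the 12 had a negative log2 fold change, with a median of -0.34. A positive one was found in 50.1% of all genes tested. Mthfd2, the mitochondrial folate enzyme, had 553, 662 and 773 normalised counts in untreated and 427, 339 and 403 in treated libraries, a log2 fold change of -0.76 and an unadjusted p of 0.00898 (limma). Pycr1, of proline synthesis, had 149, 196 and 245 against 284, 320 and 521, a log2 fold change of 0.91 and an unadjusted p of 0.0115 (limma). These genes stood on opposite sides, each without overlap between the groups. The serine synthesis genes Psat1 and Phgdh were at -0.71 and -0.57, with p of 0.0694 and 0.0817 (limma).

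Of 15 secreted and other targets of ATF4 or CHOP, 14 were tested and 2 were higher past the study thresholds. Ero1l, an ER oxidase that CHOP induces, had 625, 656 and 726 normalised counts in untreated and 1751, 1850 and 1714 in treated libraries. Its log2 fold change was 1.41 ± 0.22 with an adjusted p of 0.0277 (limma), the only adjusted p under 0.05 among the 48 target genes, and it lay between 0.0112 and 0.169 when 1 library was left out. Ndrg1, a stress and hypoxia responsive gene, had 182, 281 and 285 against 513, 764 and 918, a log2 fold change of 1.54 ± 0.29 and an adjusted p of 0.0611 (limma), which was 0.003 with the replicate block. Vldlr was at 0.73 with a p of 0.0192, and Bcl2l11, which encodes the death protein BIM, at -0.83 with a p of 0.0297 (limma). Ero1l and Ndrg1 are also known as hypoxia responsive genes, as is Ddit4. Of 11 glucocorticoid and hypoxia targets listed apart, 10 were tested and none passed the study thresholds, with Egln3 at -0.71, Tsc22d3 at 0.59, Klf9 at -1.07 and Bnip3 at 0.40. Their unadjusted p were 0.0397, 0.0468, 0.134 and 0.15 (limma). The part of hypoxia and of glucocorticoids in the values of Ero1l, Ndrg1 and Ddit4 was not tested.

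**Figure D5:**
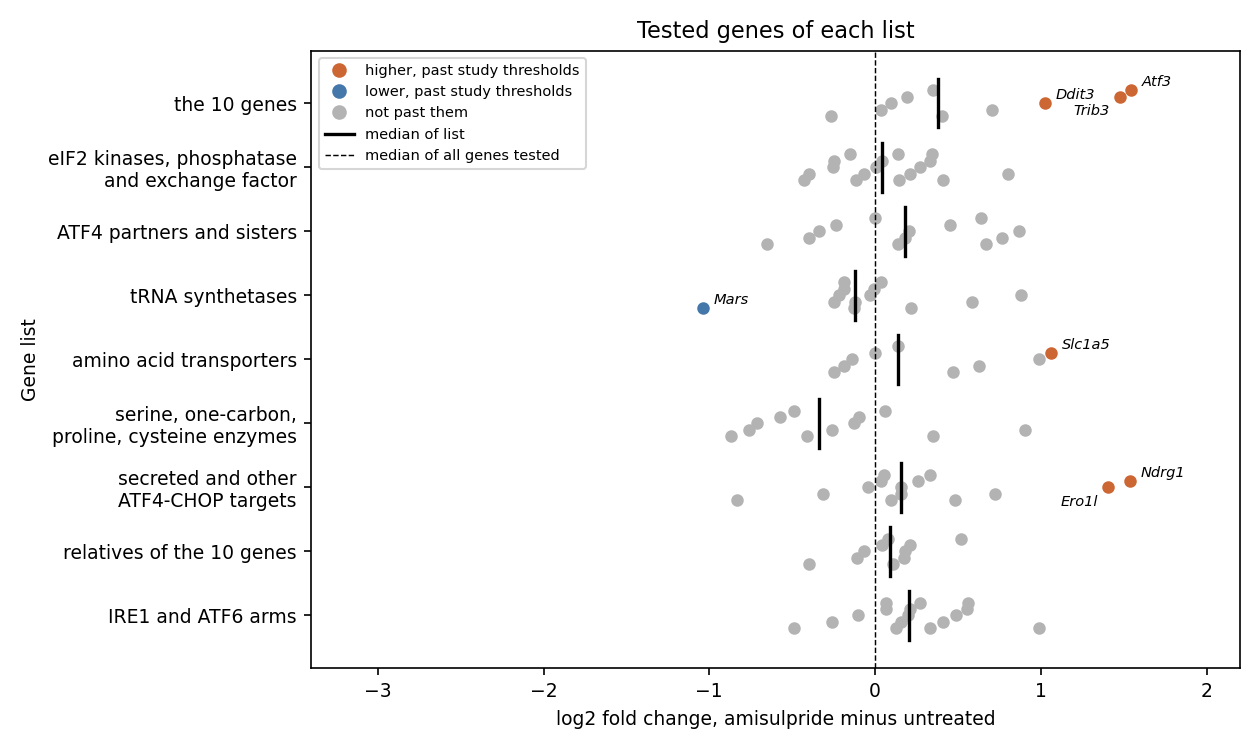
Log2 fold change, amisulpride minus untreated, of each tested gene of the 10 members and of 8 further lists, with the median of each list (black bar) and of all genes tested (dashed line). Points past the study thresholds are named, 3 among the 10 genes and 4 in the other lists, where Mars is the one lower gene.

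Of 11 relatives of the 10 members, 10 were tested and none passed the study thresholds, with a median of 0.09. The pseudokinase genes Trib1 and Trib2 were at 0.08 and 0.11, beside 1.48 for Trib3, and the sestrins Sesn1 and Sesn3 at 0.52 and 0.17, beside 0.40 for Sesn2. Sesn1 had 32, 30 and 31 normalised counts in untreated and 49, 51 and 36 in treated libraries, without overlap. Differences between relatives were not tested. Of 16 genes of the other arms of the unfolded protein response, which run through IRE1 and ATF6, all were tested, 13 had a positive log2 fold change, none passed the study thresholds and none had an unadjusted p under 0.05 (limma). Over all genes tested, 50.1% had a positive log2 fold change. The ER chaperone Hspa5, the best known target of ATF6, was at 0.41, with 22460, 17928 and 16469 normalised counts in untreated and 26112, 26294 and 22577 in treated libraries, and was named after its values were seen. The 4 genes with the lowest p in this list were Dnajb9, a target of IRE1 and XBP1, at 0.56, Dnajb11 at 0.99, Hyou1 at -0.49 and Herpud1 at 0.49, with p from 0.115 to 0.174 (limma). The value of Dnajb11 rested on amisulpride replicate 2, with 1835 normalised counts against 208 to 311 in the other libraries.

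The genes most like Atf4 over the 6 libraries, by the root mean square difference of centred log2 values among 11034 other protein-coding genes, were Mast2 at 0.0553, Ndufb6 at 0.067 and Alg6 at 0.0681. Mast2 had 11 to 18 and Alg6 16 to 24 normalised counts. Those most like Ddit3 were Kctd12 at 0.16, Fchsd1 at 0.176 and Lmcd1 at 0.185. Kctd12 had 65, 76 and 65 normalised counts in untreated and 176, 224 and 102 in treated libraries. The order of its treated libraries was that of Ddit3, the likeness for which it was chosen. None of these 6 genes was a member or stood in the pathway lists.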

How the data were processed

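The 3′ mRNA libraries (QuantSeq) of 3 untreated and 3 amisulpride-treated cultures were sequenced on an Ion Proton. Per the study's methods and the submitters' processing notes, the authors mapped reads to mm10 with TopHat2 and then Bowtie2, counted them per gene with GenomicRanges, and normalised and tested them with DESeq through metaseqr; versions and strand use are not given in the sources used here. The deposited values used are a score: read counts scaled by the authors with 1 factor for each library and then rounded. Their fold changes and p-values were not used, nor were 12 further columns of per-library values on other scales. Whole reads could be recovered only approximately, so depths and read numbers are estimates and no count test was run.

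Groups were taken from the labels. Their comparison used limma 3.58.1 (R 4.3.3, eBayes with trend, two-sided) on log2(normalised count + 1), over the 12614 genes with at least 10 in at least 3 of 6 libraries, with Benjamini-Hochberg adjustment over all of them. Fold changes are on this scale and understate the change of low genes. The labels give both groups replicates 1 to 3. Deviations from the group means correlated at 0.229, 0.240 and 0.201 between libraries of the same number and at -0.149 to -0.0777 otherwise. Deviations cancel within a group, so positive values within numbers make the others negative on average. On this evidence from the data alone, the numbers were taken as possible pairs. The main fit and the permutation of ratios left them out, and they enter only as the replicate block and in values given by pair. The methods say biological replicates, and p-values measure the spread between these cultures. With 3 reads as the limit that a count of 0 allows, the floor was 2.50 to 5.37 normalised counts, for counting error only. Ratios to Atf4 were compared by exact permutation (scipy 1.17.1), and gene overlaps were taken from GENCODE M21.

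Alternatives were a pseudocount of 5, no filter, a filter at 30, quantile and median-of-ratios scaling, weights per library, a replicate block and leaving out each library. The members and gene lists were chosen with earlier results of these data known. Named were the 10 members, from each list the genes with an adjusted p under 0.05 and then those with the lowest p, up to 4, and the direct relatives of members. Likeness was sought for Atf4 and Ddit3 alone.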

Additional observations from a re-analysis of the deposited data

How the results depend on the processing

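The median of the 10 members, 0.38, ran from 0.30 to 0.50 when 1 library was left out. Of 129 alternative log2 fold changes of single members, 122 kept their direction and side of the study thresholds. Ddit3 lost the fold threshold without untreated replicate 3 (0.98) and without amisulpride replicate 2 (0.74), so that 2 to 3 members passed with 1 library left out, and 2 with a filter at 30, under which Atf3 was not tested. The sign turned for Chac1, to -0.23 with weights per library and to -0.35, -0.04 and -0.08 without untreated replicate 1, untreated replicate 2 and amisulpride replicate 3, and for Atf4, to -0.038 without untreated replicate 2, its range with 1 library left out being -0.038 to 0.28. 

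An adjusted p under 0.05 was reached by 1 member, Trib3 with the replicate block and Ddit3 with weights per library (adjusted p = 0.0267, limma), and by 0 to 1 with 1 library left out, Ddit3 without amisulpride replicate 3. The block changed no other member's call. Over all genes, 36 had an adjusted p under 0.05 by limma, against 57 with a pseudocount of 5, 57 without a filter, 66 after quantile scaling, 263 with the replicate block, 195 with weights and 0 to 120 with 1 library left out; it was 1 without untreated replicate 1, 0 without untreated replicate 2 or 3, 17 and 6 without amisulpride replicates 1 and 2, and 120 without amisulpride replicate 3. In the fits with 0, 1083 and 911 genes had an unadjusted p under 0.05. The study thresholds called 719 genes, 1313 without a filter and 462 with a filter at 30, where more or fewer genes were tested, and 563 to 1000 with 1 library left out. The first 3 counts were 5.70%, 5.77% and 4.70% of the genes tested in those fits. The causes of these shifts were not tested. Atf3, at approximately 7 to 36 reads, had the fewest reads of the members, and the part of depth in its change was not tested.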
